A study of Saccharomyces cerevisiae with 2 samples.

Results

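Reductive iron uptake is a high-affinity route by which budding yeast takes up free iron. Its genes were followed here through 1 exposure to paraquat, a redox-cycling herbicide whose reduced form reacts with oxygen and yields superoxide. The members were 10 genes out of 6142 named rows in the expression table, picked by name for their roles with earlier results of these data known. They were the ferroxidase gene FET3, the permease gene FTR1, the ferric reductase genes FRE1 to FRE6, and ATX1 and CCC2, which deliver copper to Fet3. All 10 had a row and all 10 passed the filter on low values, which asks for an average of 50 or more normalized reads over both libraries. RNA was sequenced from 2 cultures of the strain BY4741 in mid-log growth in rich glucose medium (optical density 0.3 to 0.5), 1 untreated and 1 kept in 2.5 mM paraquat for 8 h. Both are labelled wild type and share the strain's laboratory deletions. How long the untreated culture was kept is not labelled, so paraquat and hours in culture cannot be told apart.

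With 1 library per group there is no measure of the spread between cultures, and no test across samples could be made. The 95% intervals treat each read as independent and cover counting error only. The libraries held 164909400 reads (untreated) and 165264107 reads (paraquat) on named genes. Of the strain check, HIS3, which the strain carries in a partly deleted form, held 16302 and 13669 reads, and the fully deleted URA3, LEU2 and MET17 were not analysed here. BY4741 is of mating type a, and 5 genes specific to a cells summed to 306194 normalized reads untreated and 223689 in paraquat, against 1840 and 2678 for the 3 genes of alpha-type cells.

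In yeast, ferric iron outside the cell is first reduced to ferrous iron by Fre enzymes at the cell surface. Fet3, a multicopper oxidase, then oxidizes it again while handing it to its partner Ftr1, which carries it across the plasma membrane. Fet3 works only when loaded with copper in the secretory pathway, where the membrane pump Ccc2 receives copper from the cytosolic chaperone Atx1. The transcription factors Aft1 and Aft2 switch on many of these genes when iron is scarce, by binding an element with the core CACCC. The factor Mac1 acts on copper uptake genes when copper is scarce, through an element close to TTTGCTC.

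The elements upstream of the members are shown first because the genes differ in which of them they hold. Within the 500 bases before the start codon of the RefSeq R64 gene models, a window chosen after seeing the data, the extended Aft element TGCACCC was found on either strand in 9 of 10 members, against 2.33% of 6000 promoters. It contains the core CACCC, which was found in 10 of 10 members and in 33.5% of promoters. Of 18 further genes of the Aft1 and Aft2 regulon, 13 held the extended element and 18 the core. Many members are known targets of these factors, so an excess over all promoters could be foreseen. Each line gives 1 match of the extended element in capitals with 12 bases on either side, read along the strand of the element.
FET3 on chromosome XIII, 251 bases before the start codon: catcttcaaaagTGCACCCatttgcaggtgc
FTR1 on chromosome V, 365 bases before, opposite strand: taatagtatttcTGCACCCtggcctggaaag
FTR1, 175 bases before: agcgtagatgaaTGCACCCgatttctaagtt
CCC2 on chromosome IV, 290 bases before, opposite strand: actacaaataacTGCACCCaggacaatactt
CCC2, 242 bases before, opposite strand: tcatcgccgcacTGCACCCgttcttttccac
ATX1 on chromosome XIV, 116 bases before, opposite strand: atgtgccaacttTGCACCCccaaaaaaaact
FRE2 on chromosome XI, 430 bases before: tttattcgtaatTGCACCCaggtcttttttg
FRE3 on chromosome XV, 427 bases before: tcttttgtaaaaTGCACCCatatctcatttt
FRE4 on chromosome XIV, 437 bases before: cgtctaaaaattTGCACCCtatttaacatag
FRE5 on chromosome XV, 331 bases before: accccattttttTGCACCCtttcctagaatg
FRE5, 230 bases before, opposite strand: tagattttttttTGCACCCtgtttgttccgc
FRE6 on chromosome XII, 142 bases before: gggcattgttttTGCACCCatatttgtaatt
The distance is counted to the first base of the match along the gene, and letters before it can include transcribed sequence. In FRE2, FRE3 and FRE4 the element lay at nearly the same distance from the start codon.

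FRE1 was the 1 member with no extended Aft element in that window. It held a single core CACCC 221 bases before the start codon and 3 matches to the Mac1 element TTTGCTC, which 8.62% of promoters held. FTR1 was the 1 other member with a match to it, 81 bases before its start codon on the opposite strand. CTR1, the gene of the high-affinity copper transporter at the cell surface, is shown beside FRE1 because both held more than 1 Mac1 element, in capitals here.
FRE1 on chromosome XII, 286 bases before the start codon: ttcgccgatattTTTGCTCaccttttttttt
FRE1, 269 bases before: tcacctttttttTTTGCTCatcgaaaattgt
FRE1, 96 bases before: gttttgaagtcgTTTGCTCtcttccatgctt
CTR1 on chromosome XVI, 334 bases before: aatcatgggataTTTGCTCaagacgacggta
CTR1, 311 bases before, opposite strand: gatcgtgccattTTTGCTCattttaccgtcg
A match is a description of these letters and says nothing about binding in either culture. In the shorter window of 250 bases before to 50 after the start codon, TGCACCC was found in 5 of 10 members (FTR1, FRE5, FRE6, ATX1 and CCC2) against 1.30% of 6001 promoters. There it was found in 8 of the 18 further regulon genes. The element of FET3 begins 1 base outside that window. In the same window CACCC was found in 7 members against 20.0% of promoters, and TTTGCTC in 3 members against 5.43%. For FET3 that match lies in the coding sequence.

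The ferroxidase, the permease, the copper pump and a pair of reductase genes were more than 2-fold higher after paraquat, and no member was lower. The 5 members at least 2-fold higher were CCC2, FET3, FRE3, FTR1 and FRE5. Over all 5973 genes that passed the filter, 3.08% were past 2-fold in the higher and 1.52% in the lower direction. All 10 members lay above 0 on the log2 scale, where 49.7% of all genes did, and their median log2 change was 0.93 against -0.003 for all genes. Since the members were chosen with earlier results of these data known, this contrast is a description only. A change in every cell and a larger change in some of the cells cannot be told apart in these bulk samples. Scaling both libraries to total reads on named genes, in place of the deposited scaling, adds 0.26 to every log2 value. The split over all genes then moves from 184 higher and 91 lower to 312 higher and 44 lower, while the 5 members above 2-fold and the 5 within it stay as counted.

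**Figure D1:**
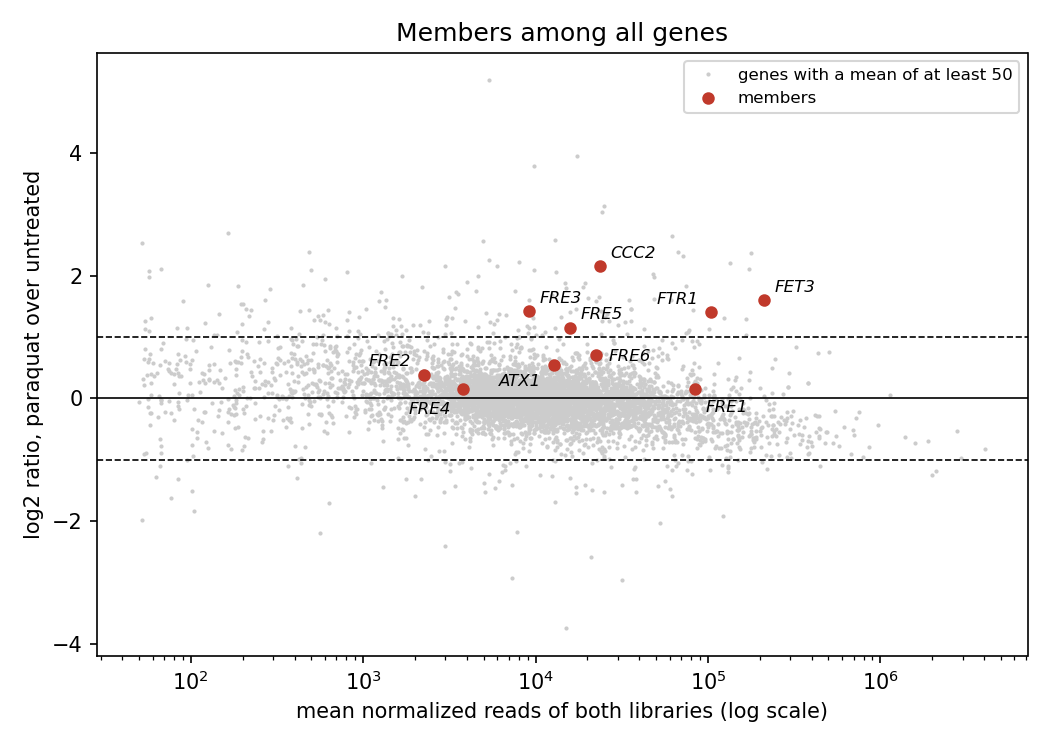
Each grey point is a gene that passed the filter on low values, placed by its mean in both libraries (log axis) and its log2 ratio of paraquat over untreated, and red points are the 10 members. Dashed lines mark 2-fold, and CCC2, FET3, FRE3, FTR1 and FRE5 lie above the upper line while no member lies below 0.

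FET3 had 104023 normalized reads in the untreated library and 317567 in the paraquat library. The multicopper oxidase gene was thus 3.05-fold higher (3.03 to 3.07). It moved from place 301 to place 42 among all named rows by normalized reads. FTR1, the gene of the iron permease, had 57085 normalized reads untreated and 151675 in paraquat, a 2.66-fold difference (2.63 to 2.68), and moved from place 539 to place 142. Both subunits of the uptake complex were therefore among the more abundant transcripts in either library. They supplied 80.3% of the summed increase of the 10 members, which went from 297687 to 681646 normalized reads. FET3 alone took 0.0576% of all reads on named genes untreated and 0.210% in paraquat. These shares rest on total reads, a scaling that gives FET3 a log2 change of 1.87, against 1.61 under the deposited scaling.

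FET3, FTR1 and FRE1 belong to the highest of 10 classes of mean level, whose 598 genes had a median log2 change of -0.31. In that class 19 genes were past 2-fold in the higher and 26 in the lower direction. Under the deposited scaling, FET3 at 1.61 and FTR1 at 1.41 on the log2 scale thus lay on the other side of 0 from the median of that class. The class spans a wide range of levels, so its genes are not matched to FET3 or FTR1.

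The balance between the partners moved a little. Per kilobase of coding sequence the FET3 level was 1.16 times that of FTR1 untreated (1.15 to 1.17) and 1.33 times in paraquat (1.32 to 1.34). The fold of FET3 was 1.15 times that of FTR1 (1.14 to 1.16). This is beyond counting error, but how it compares with the spread between cultures cannot be told from 1 library each.

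A related pair works at the membrane of the vacuole, where Fet5 and Fth1 move stored iron out. Fet5 shares 44.9% of residues with Fet3, and Fth1 shares 30.8% with Ftr1, from global alignments of the translated RefSeq genes. FET5 had 18440 normalized reads untreated and 42121 in paraquat (2.28-fold, 2.24 to 2.32). FTH1 had 17277 and 52592 (3.04-fold, 2.99 to 3.10). Both vacuolar genes were thus past 2-fold as well. The folds of FET3 and FTH1 were the same within counting error, with a ratio of 1.003 (0.984 to 1.02). In the vacuolar pair the order was the reverse of that at the surface, with a fold of the oxidase gene FET5 that was 0.750 times that of its permease gene FTH1 (0.732 to 0.769).

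The copper loading genes differed from each other. CCC2, the gene of the copper pump, had 8671 normalized reads untreated and 38709 in paraquat, and its 4.46-fold difference (4.36 to 4.57) was the largest of the 10 members and the 19th highest of 5973 genes. ATX1, the gene of the chaperone that feeds it, had 10413 and 15126, a 1.45-fold difference (1.42 to 1.49). The fold of CCC2 was 3.07 times that of ATX1 (2.97 to 3.18). Atx1 is a protein of 73 residues and Ccc2 one of 1004, so their transcripts are compared per length. Per kilobase of coding sequence, the CCC2 level was 0.0613 times the ATX1 level untreated (0.0595 to 0.0632) and 0.188 times in paraquat (0.185 to 0.192). The chaperone transcript thus stayed the more abundant of the pair in both libraries. With 222 coding bases, the per-kilobase level of ATX1 is the one most open to reads counted outside the coding sequence.

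**Figure D2:**
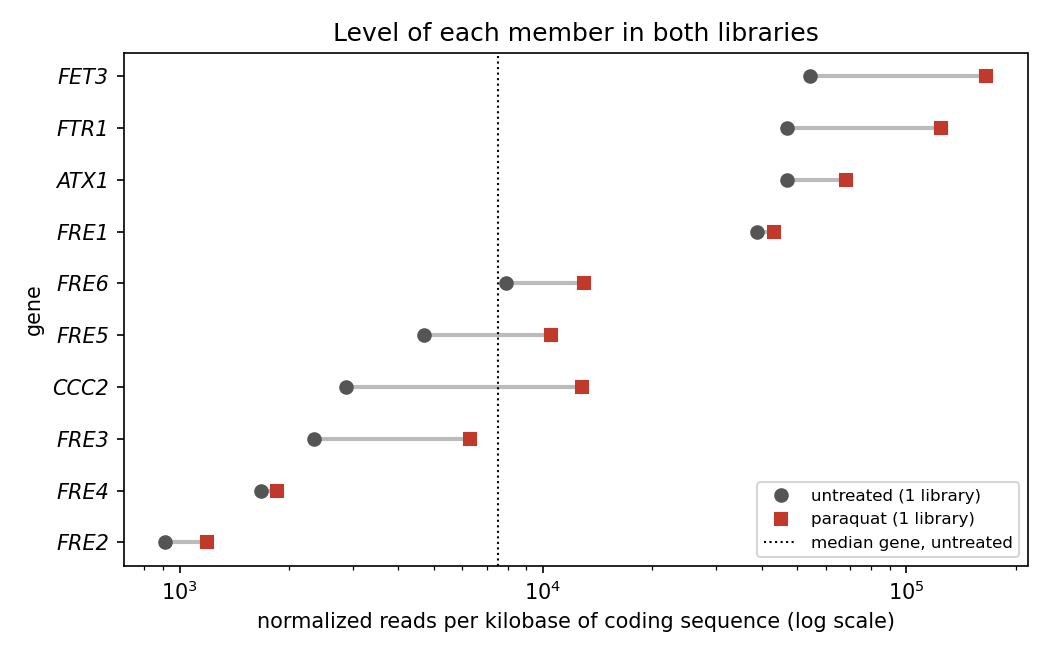
Levels of the 10 members are shown as normalized reads per kilobase of coding sequence on a log axis, with a circle for the untreated and a square for the paraquat library, and the dotted line marks the median gene of the untreated library. FET3 and FTR1 stand highest in both libraries, and CCC2 has the longest line, from 2876 to 12839.

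The reductase genes did not move together. FRE1 and FRE2 encode the main ferric reductases of the cell surface, which also reduce copper. FRE1 had 80161 normalized reads untreated and 88892 in paraquat, a 1.11-fold difference (1.10 to 1.12). FRE2 had 1944 and 2548, a 1.31-fold difference (1.23 to 1.39). Of all genes, 36.2% had a smaller absolute log2 change than FRE1 and 73.0% a smaller one than FRE2.

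Fre3 and Fre4 are known to release iron from siderophores, small iron carriers made by other microbes. FRE3 had 4996 normalized reads untreated and 13445 in paraquat, a 2.69-fold difference (2.60 to 2.78). FRE4 had 3610 and 4014, a 1.11-fold difference (1.06 to 1.16). The fold of FRE3 was 2.42 times that of FRE4 (2.29 to 2.56), so these siderophore reductase genes parted. FRE3 was close to FTR1, with a ratio of folds of 1.01 (0.978 to 1.05), and FRE4 close to FRE1, with a ratio of 1.003 (0.957 to 1.05).

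Fre6 sits in the vacuole membrane and the role of Fre5 is less well known. FRE5 had 9810 normalized reads untreated and 21888 in paraquat, a 2.23-fold difference (2.18 to 2.29). FRE6 had 16974 and 27783, a 1.64-fold difference (1.61 to 1.67). The fold of FRE5 was 1.36 times that of FRE6 (1.32 to 1.41), and the 2-fold mark falls between them: FRE5 is the member just above it and FRE6 the member just below.

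The closest relatives in sequence differed in response. Among FRE1 to FRE6, the translated genes shared between 21.3% and 75.9% of residues over 15 pairs, with Fre2 and Fre3 the closest pair and Fre1 apart from the rest at no more than 25.1%. FRE3 had 2.05 times the fold of its nearest relative FRE2 (1.92 to 2.20). Their coding sequences matched at 76.8% of bases. No member had a copy of at least 95% identity over at least 80% of its length, and none overlapped another annotated gene. The sources used here do not say how reads that match several places were counted.

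The make-up of the reductase transcripts shifted away from FRE1. Per kilobase of coding sequence FRE1 made up 68.9% of the summed level of FRE1 to FRE6 untreated and 56.8% in paraquat. The share of FRE3 went from 4.14% to 8.29% and that of FRE5 from 8.33% to 13.8%, while FRE6 held 14.1% and 17.1%. FRE2 with 1.61% and 1.57% and FRE4 with 2.96% and 2.45% remained the rarest in both libraries. Summed per kilobase, FRE2 to FRE6 were 1.87-fold higher and FRE1 to FRE6 were 1.35-fold higher.

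**Figure D3:**
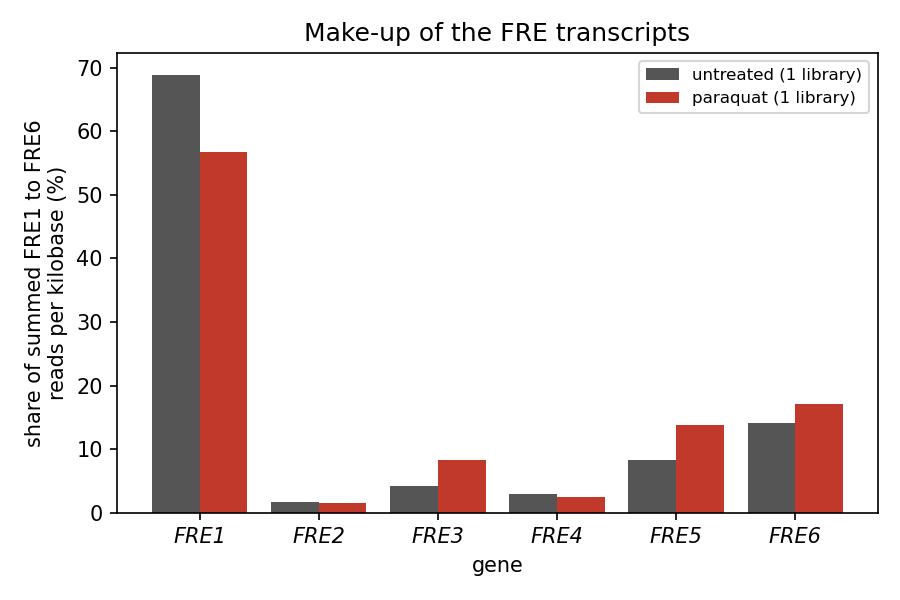
Bars give the share of each reductase gene in the summed normalized reads per kilobase of FRE1 to FRE6, in percent, for the untreated (grey) and the paraquat library (red). FRE1 makes up 68.9% of the sum untreated and 56.8% in paraquat, and FRE3 and FRE5 take larger shares in paraquat.

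Ranked by level per kilobase, the untreated library had FET3 at 54434, FTR1 at 46983, ATX1 at 46906, FRE1 at 38894, FRE6 at 7935, FRE5 at 4705, CCC2 at 2876, FRE3 at 2339, FRE4 at 1672 and FRE2 at 910.0 normalized reads per kilobase. The median gene stood at 7517, so FRE5, CCC2, FRE3, FRE4 and FRE2 lay below it. Of neighbours in this order, FTR1 and ATX1 had overlapping counting intervals and the other neighbours did not. In paraquat the order was the same except that CCC2 at 12839 passed FRE5 at 10498, and CCC2 and FRE6 (12989) were the neighbours with overlapping intervals. The highest stood 59.8 times above the lowest untreated and 139 times in paraquat.

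The other genes of the Fre family were not past 2-fold in the higher direction. FRE7, a reductase gene known to respond to low copper, had 9078 normalized reads untreated and 4244 in paraquat, which is 2.14-fold lower (2.06 to 2.22). FRE8 was 1.40-fold higher (1.35 to 1.45), between FRE2 and FRE6. AIM14, a more distant relative, was 1.11-fold higher (1.08 to 1.14), close to FRE1 and FRE4. FRE7 was the 1 gene of the family at least 2-fold lower, and it came within 2-fold when scaled to total reads on named genes.

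**Figure D4:**
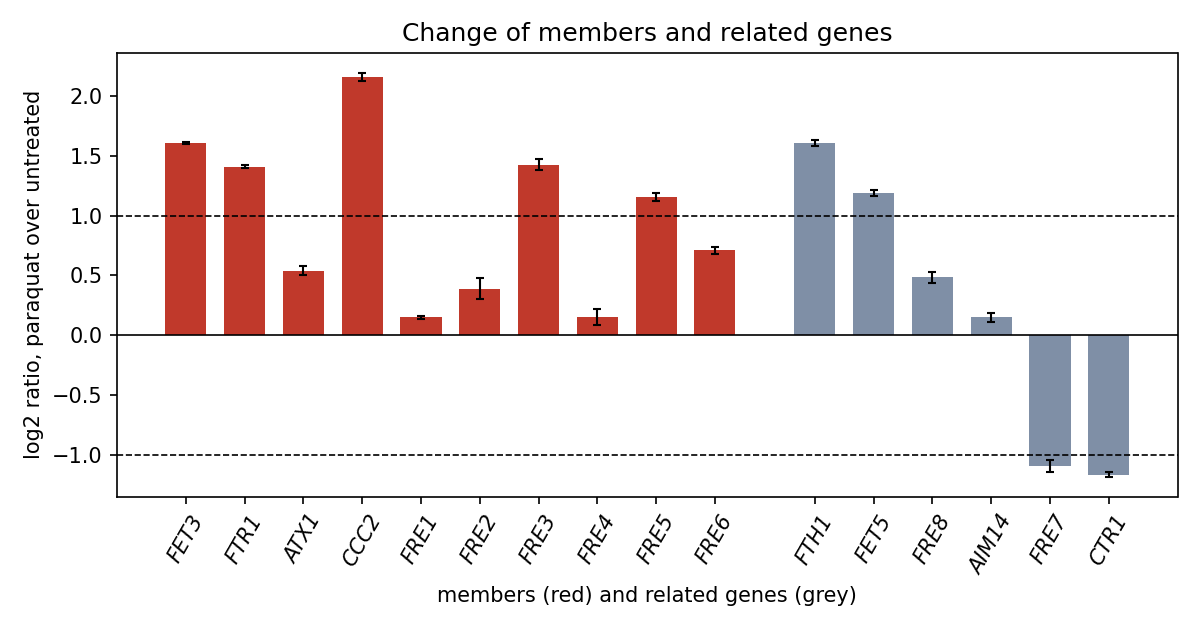
Bars give the log2 ratio of paraquat over untreated for the 10 members (red) and for 6 related genes (grey), with 95% counting intervals as error bars and 2-fold marked by dashed lines. The members lie between 0.15 and 2.16, and FRE7 and CTR1 lie below the lower line.

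Matches to the elements and folds can be set side by side for the 10 members. The 3 members with a pair of extended Aft elements in 500 bases, FTR1, FRE5 and CCC2, were between 2.23-fold and 4.46-fold higher. The 6 members with 1 such element ranged from 1.11-fold for FRE4 to 3.05-fold for FET3. FRE1, with none, was 1.11-fold higher. In the shorter window of 250 bases before to 50 after the start codon no member held a pair. There the 5 members with 1 element ranged from 1.45-fold to 4.46-fold higher and the 5 with none, FET3 and FRE3 among them, from 1.11-fold to 3.05-fold. The ranges of members with 1 and with 2 elements overlap in the longer window, and those with 0 and with 1 in the shorter. In the longer window FTH1 and AIM14 held no extended element and were 3.04-fold and 1.11-fold higher. FET5 and FRE8, with 1 each, were 2.28-fold and 1.40-fold higher. FRE2, FRE3 and FRE4 each hold 1 element at a similar place in the longer window but had folds of 1.31, 2.69 and 1.11. Of the genes with a Mac1 element, FRE1 was 1.11-fold and FTR1 2.66-fold higher, while CTR1 was lower. CTR1 had 85319 normalized reads untreated and 38001 in paraquat, 2.25-fold lower (2.22 to 2.27). FRE7, also lower, had no match to any of the 3 elements in that window.

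**Figure D5:**
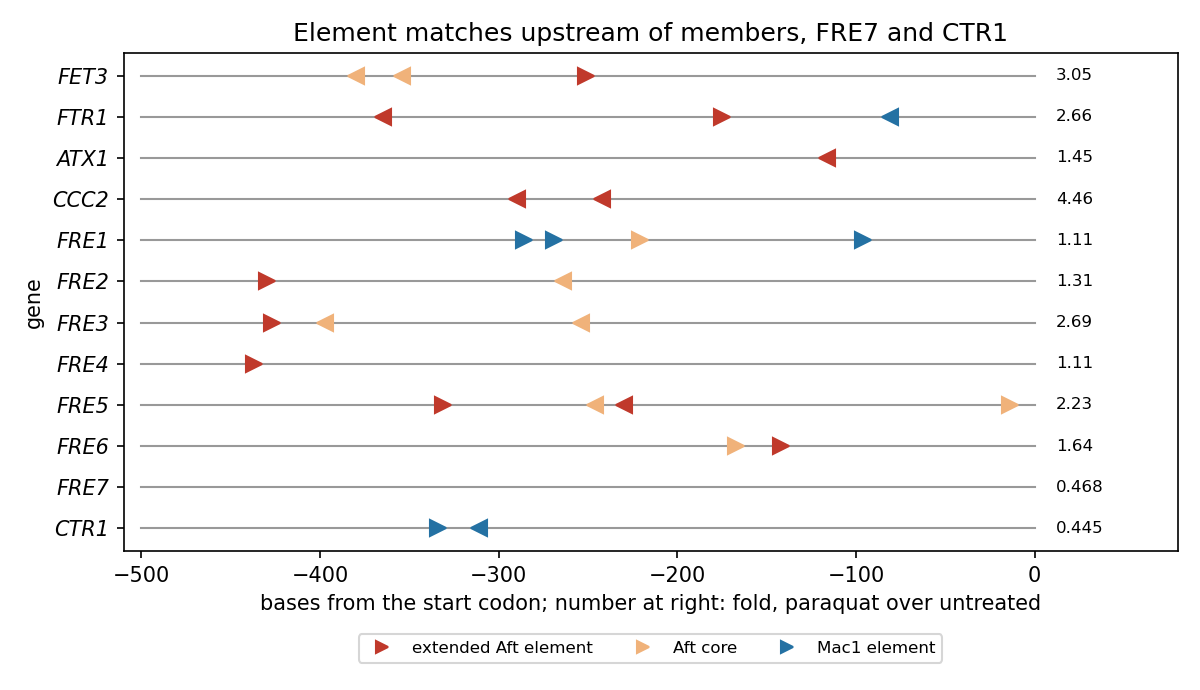
Arrowheads mark matches to the extended Aft element, to the Aft core outside it and to the Mac1 element in the 500 bases before the start codon, pointing right where the match is on the strand of the gene, with the fold of each gene at the right. FRE1 and CTR1 hold several Mac1 elements and no extended Aft element, with folds of 1.11 and 0.445.

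On chromosome XV, FRE3 and FRE5 frame the genes FIT2 and FIT3, which encode cell wall mannoproteins that hold siderophores. These neighbours were chosen after their values were seen. In gene order, FRE3 was 2.69-fold higher, the short reading frame YOR381W-A 2.74-fold higher (2.19 to 3.45), FIT2 3.96-fold (3.89 to 4.02), FIT3 5.19-fold (5.14 to 5.23) and FRE5 2.23-fold. YOR381W-A rests on 102 untreated and 335 paraquat reads. The genes just outside differed from this run: RDR1 beside FRE3 was at 0.968-fold (0.927 to 1.01) and YOR385W beside FRE5 was 2.16-fold lower (2.13 to 2.20) under the deposited scaling. FIT3 and FRE5 point away from each other with 508 bases between them, so the extended Aft elements printed for FRE5 also lie upstream of FIT3. Of the 20 genes next to a member, 2 were at least 2-fold higher (YOR381W-A and FIT3) and 1 at least 2-fold lower (YOR385W). Over all genes these shares were 3.08% and 1.52%. The median log2 change of the 20 was 0.12, against -0.003 for all genes. Scaled to total reads, YOR385W came within 2-fold, and AQY2 beside FRE6 passed 2-fold in the higher direction.

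Other iron and copper genes give the setting, each list described by counts beside the 3.08% and 1.52% of all genes. Of 18 further genes of the Aft1 and Aft2 regulon, 17 were at least 2-fold higher and 0 lower, with a median log2 change of 1.81. The direction of this list was known from earlier results of these data. They were led by LSO1, a small protein of iron-starved cells, at 36.6-fold (32.4 to 41.5), the siderophore mannoprotein gene FIT1 at 15.6-fold, TIS11, whose product speeds decay of transcripts of iron-using proteins, at 8.24-fold, and the siderophore transporter gene ARN1 at 6.26-fold. The exception was VHT1, a biotin transporter gene, at 1.68-fold, named after its value was seen. Scaled to total reads VHT1 passed 2-fold too, and all 18 genes were at least 2-fold higher. FET5 and FTH1 belong to this list too.

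The regulators lay within 2-fold. Of 8 genes of iron sensing and regulation 0 were past 2-fold in either direction, with a median log2 change of 0.16. Of these, 6 lay above 0 and 2 below, the lowest being GRX3 at a log2 change of -0.56. The other gene below 0 was CCC1 at -0.19, which turns positive when scaled to total reads. AFT1 was 1.496-fold higher (1.46 to 1.53), AFT2 1.32-fold (1.28 to 1.36) and YAP5, a factor that responds to high iron, 1.76-fold (1.70 to 1.83), which passes 2-fold when scaled to total reads. Low-affinity iron uptake also had 0 of 3 genes past 2-fold and a median of 0.42. FET4, its main transporter, had 39180 normalized reads untreated and 29732 in paraquat, with a log2 change of -0.40, and SMF2 lay at 0.47. The 3 genes of Fet3 and Ftr1 maturation and trafficking had a median of 0.18, with GEF1, a chloride channel gene needed for copper loading of Fet3, at 1.20-fold.

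The copper list went both ways. Of 13 listed genes 10 had a value, with 0 past 2-fold in the higher and 2 in the lower direction, CTR1 and FRE7. Scaled to total reads, both came within 2-fold and SOD1 passed it. Their log2 changes ran from -1.17 for CTR1 to 0.84 for SOD1. Their median log2 change was 0.12 and their mean was -0.02, so median and mean differ in sign. MAC1 itself had 6534 normalized reads untreated and 5747 in paraquat, a log2 change of -0.19 that turns positive when scaled to total reads. SOD1, the copper-zinc superoxide dismutase gene counted in this list, was 1.78-fold higher under the deposited scaling, and was named after its value was seen.

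The 3 genes nearest to FET3 in level and response, by the distance of their log2 normalized reads in both libraries, were HXT1, a glucose transporter gene, at a distance of 0.08, ACO1, the mitochondrial aconitase gene, at 0.45, and TRR1, a thioredoxin reductase gene, at 0.51. With 2 libraries such likeness is a matter of level and fold alone.

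In the authors' deposited table, 4 of the 10 members had an unadjusted p under 0.05, against 2.12% of all named rows. These values in the authors' deposited table were 0.0108 for CCC2, 0.0232 for FET3, 0.0321 for FTR1 and 0.0329 for FRE3, and FRE5 followed at 0.0514. After adjustment each member stood at 0.999 in the authors' deposited table, so 0 of 10 passed 0.05, as did 0 of all 6142 rows. That test set 1 library against 1, so it holds no measure of the spread between cultures.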

How the data were processed

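The file deposited by the authors holds, per the file headers, a normalized signal for each gene in both libraries, its log2 ratio, and a p-value with its adjusted form. From the values, each signal is a whole number of reads over a library size factor: 100% of values were whole multiples, within 0.01 read, of 1.10 units (untreated) or 0.913 units (paraquat) per read. Tools in the submitters' processing notes are STAR 2.5.2b, Trimmomatic 0.36, featureCounts, Subread 1.5.2 and DESeq2. What each was used for, the genome build and the gene annotation were not given in the sources used here. Deposited log2 values equal the ratio of the normalized values within 8.38e-05. The 1 unnamed row (0.00449% and 0.00675% of reads) was left out.

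Folds are ratios of normalized values with exact Clopper-Pearson 95% intervals of the read split. Intervals of levels are exact Poisson, and those of ratios of folds use the variance of log counts. Intervals cover counting error only, and reads without molecular identifiers are not independent molecules. A gene counted as changed had at least a 2-fold difference and a mean of at least 50. No count model was run, since 1 library per group gives no spread. Coding lengths, names (5920 of 6142 rows matched), element matches and identities came from RefSeq R64, with BLAST+ 2.17.0 and Biopython 1.88. Coordinates are left out, since the build behind the table is unknown. Python 3.11.15, numpy 2.4.6, pandas 2.3.3 and scipy 1.17.1 were used. The interval and the fold rule were tried on simulated counts with counting error only, which says nothing of the spread between cultures.

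The members and gene lists were chosen with earlier results of these data known. Besides the members, the text names up to 4 genes past 2-fold per list or else the 1 with the largest change, CTR1, MAC1, FET4, AFT1 and AFT2, the strain markers, and the 3 genes nearest to FET3. FRE8, AIM14, VHT1, SOD1, GRX3, CCC1 and the genes next to members were added after seeing values. CUP1-1, CUP1-2 and CRS5 were not analysed here.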

Additional observations from a re-analysis of the deposited data

How the results depend on the processing

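The count of 5 members at least 2-fold higher and 0 lower was the same when centred on the median gene, scaled to total reads, with pseudocounts of 1 and 10, with no minimum mean and with the whole counting interval past 2-fold, and also when scaled to reads outside the 25 most abundant rows, a scaling chosen after seeing the data. It was 6 with a threshold of 1.5-fold and 2 with one of 3-fold. The members' median log2 change was 1.19 scaled to total reads, 1.10 scaled to reads outside the 25 most abundant rows, 0.97 as a mean and 0.71 without CCC2. No log2 value of a member changed sign under the 4 scalings and pseudocounts. Over all genes, 312 were higher and 44 lower scaled to total reads, 463 and 351 at 1.5-fold, and 63 and 16 at 3-fold. The median of the other Aft1 and Aft2 genes was 2.07 scaled to total reads, 2.12 as a mean and 1.63 without LSO1. Means reversed the sign of the medians of the other Fre family genes (-0.15) and the copper genes (-0.015). Without length scaling 6 of 10 members kept their place in the order of levels, in either library. By unadjusted p in the authors' deposited table, 4 members passed in place of 0. No paired analysis was possible because each group has 1 library. Depth limits none of the member folds, whose lowest read count was 1775, for FRE2 untreated. The spread between cultures was not measured.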
